A study of Mus musculus with 3 samples.

Results

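The genes described here encode calprotectin (S100a8, S100a9), lipocalin 2 (Lcn2), the interleukin 1 decoy receptor (Il1r2), the granule proteins Camp, Ltf, Ngp and Pglyrp1, and the myeloid proteins Ceacam10 and Chil3. They were chosen by name, with the array's older names for Camp, Pglyrp1 and Chil3 accepted, and are 10 of the 27389 genes on the array. Their 12 probes (Il1r2 and Ltf have 2 each) were all well above background in both channels on every array, and none was saturated or marked as an outlier by the scanner.

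MigA9 is a murine cell line transformed by the homeobox transcription factor Hoxa9, so both the treated and the untreated cells carry that transformation. It was grown in RPMI-1640 with foetal calf serum and medium conditioned with GM-CSF. Cells received 2.5 µM DB818, a compound that binds in the minor groove of DNA and was studied against HOXA9, for 6, 12 or 24 h, and the others were left untreated. RNA of treated cells (Cy5) and of untreated cells (Cy3) was hybridised together on 1 two-colour array per time. The 3 groups are therefore DB818 for 6 h, for 12 h and for 24 h, each set against untreated cells and each with 1 array. The dyes were not swapped. The labels name no vehicle, and do not say when the untreated cells were taken or whether the arrays shared an untreated RNA. The time with DB818 and the array cannot be told apart.

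Neutrophils make their granule proteins in a sequence during maturation. Enzymes of the primary granules such as myeloperoxidase come first, at the promyelocyte stage, and proteins of the specific and gelatinase granules such as lactoferrin, cathelicidin and lipocalin 2 follow in later stages. Calprotectin, the calcium- and zinc-binding dimer of S100a8 and S100a9, accumulates in the cytosol as the cells mature, and Il1r2 binds interleukin 1 without passing on its signal. Factors of the C/EBP family are known activators of many of these genes.

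Across the series, 11450, 11478 and 11565 genes were measured in both channels at 6, 12 and 24 h, and 10957 on all 3 arrays. Repeat spots of a probe differed with an SD of 0.044, 0.034 and 0.051 on the log2 scale, and the median ratio of all genes was between 0.02 and 0.03. In the check of cell type, 5 of the 7 neutrophil markers with a probe (S100a8, S100a9, Csf3r, Mmp8 and Itgam) were measured on all arrays. Retnlg and Cxcr2, markers of mature neutrophils, were above background in treated cells on 1 array each and in untreated cells on none, and Ly6g had no probe. All 5 promyelocyte markers were above background in both channels of every array. Of the B cell, T cell, erythroid and eosinophil markers, 0 were measured in both channels on all arrays. However, Cd79b was above background in treated cells on all 3 arrays, and the eosinophil marker Siglecf in treated cells on 3 and in untreated cells on 2. Of 5 megakaryocyte markers only Gp1bb was measured on all arrays. Pf4 was above background in treated cells on 3 arrays and in untreated cells on 2.

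The sequences just upstream are shown for the 4 genes with the highest ratios at 24 h and for Ngp, whose ratio hardly moved, so that their known types of binding motif can be compared. Each is the 250 bases before the annotated transcription start in RefSeq (GRCm38.p6), read 5′ to 3′ on the gene's own strand. The windows are chr3:90668821-90669070 on the plus strand for S100a8, chr3:90695722-90695971 on the minus strand for S100a9 and chr2:32387740-32387989 on the minus strand for Lcn2. Il1r2 has chr1:40085843-40086092 and Ngp has chr9:110419558-110419807, both on the plus strand. Capitals mark matches to the motifs named after the sequences.
S100a8: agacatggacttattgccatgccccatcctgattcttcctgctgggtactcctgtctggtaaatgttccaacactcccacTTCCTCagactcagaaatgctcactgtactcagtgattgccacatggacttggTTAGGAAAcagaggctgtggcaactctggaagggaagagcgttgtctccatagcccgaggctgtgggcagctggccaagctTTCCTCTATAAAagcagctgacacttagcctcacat
S100a9: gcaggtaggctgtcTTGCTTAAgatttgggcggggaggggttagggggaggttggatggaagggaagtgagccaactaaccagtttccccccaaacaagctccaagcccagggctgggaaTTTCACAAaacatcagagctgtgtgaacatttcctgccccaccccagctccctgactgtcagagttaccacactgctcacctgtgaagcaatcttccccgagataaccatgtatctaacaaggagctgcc
Lcn2: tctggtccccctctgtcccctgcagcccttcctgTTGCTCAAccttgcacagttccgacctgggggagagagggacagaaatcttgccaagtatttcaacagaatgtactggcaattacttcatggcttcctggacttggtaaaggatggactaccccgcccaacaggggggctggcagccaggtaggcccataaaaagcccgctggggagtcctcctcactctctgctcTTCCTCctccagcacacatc
Il1r2: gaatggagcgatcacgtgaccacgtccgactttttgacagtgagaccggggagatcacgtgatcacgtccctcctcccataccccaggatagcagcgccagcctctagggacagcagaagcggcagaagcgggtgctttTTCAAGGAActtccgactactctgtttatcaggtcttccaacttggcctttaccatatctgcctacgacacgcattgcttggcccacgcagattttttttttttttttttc
Ngp: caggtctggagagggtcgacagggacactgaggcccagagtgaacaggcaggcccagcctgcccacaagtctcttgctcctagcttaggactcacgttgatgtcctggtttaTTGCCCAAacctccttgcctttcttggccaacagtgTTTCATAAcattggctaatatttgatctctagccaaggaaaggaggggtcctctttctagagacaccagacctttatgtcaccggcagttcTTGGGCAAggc

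Motifs were searched on both strands, and no match overlapped another. A C/EBP motif (TTNNGNAA) was present in the windows of 6 of the 10 genes (S100a8, S100a9, Lcn2, Ltf, Ngp and Chil3), against 36.8% of 32817 promoter windows of the same length. An ETS motif (GAGGAA, the kind bound by PU.1) was present in 5 of 10, against 23.2% of windows. A STAT motif (TTCNNNGAA) was present in Il1r2 and Chil3, against 7.02% of windows. A TATA box (TATAAA) was present in S100a8, 25 to 30 bases before the start, against 12.4% of windows. The letters TGATTTA, used here for HOXA9, were in the windows of 0 of the 10 genes and in 2.61% of all windows. S100a9 had 2 C/EBP matches and Ngp had 3, so both a gene with a raised ratio at 24 h and a gene without one held this motif. A match is a description of letters and not of a bound site. On chromosome 3 no protein-coding gene lies between S100a8 and S100a9. Camp, Ngp and Ltf share chromosome 9, with 8 protein-coding genes between Camp and Ngp and 20 between Ngp and Ltf.

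Calprotectin and lipocalin 2 transcripts, with Il1r2, were close to the untreated level or below it at 6 h and were 1.47-fold to 1.64-fold higher with DB818 at 24 h. Median centring without loess placed calprotectin above the untreated level already at 6 h, with log2 ratios of 0.39, 0.50 and 1.10 for S100a8 and of 0.42, 0.48 and 1.18 for S100a9. Pglyrp1 took the same course as calprotectin under loess with a smaller size. The log2 ratio of Ltf also went from below 0 to above it, but rose more from 6 to 12 h (0.25) than from 12 to 24 h (0.15). Ceacam10 was slightly higher in treated cells and Chil3 and Ngp were lower at all 3 times, but Ceacam10 was lower at all 3 times, and Chil3 and Ngp higher at 6 and 24 h, when median centring replaced loess. At least 1.5-fold higher at 24 h were 3 of the 10 genes (Lcn2, S100a8 and Il1r2), against 0.337% of the genes measured, and S100a9 lay just under that size. None of the 10 was at least 1.5-fold lower at 24 h, against 0.225% of genes. At 6 h 0 of the 10 were that much higher and 0 that much lower, against 0.131% and 0.0786% of genes. The counts at 12 h were also 0 and 0, against 0.105% and 0.0958%. These single ratios have no replicate check.

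The median log2 ratio of the 10 genes was -0.11, 0.03 and 0.33 at 6, 12 and 24 h, and that of all genes was 0.03 at each time. At 24 h the ratio was above 0 for 8 of the 10 genes, against 60.5% of all genes. The ratio was also higher at 24 h than at 6 h for 8 of the 10, against 49.9% of all genes. The plot of log2 ratios by time shows that the spread among the 10 genes was widest at 24 h, with Lcn2 highest and Chil3 lowest.

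**Figure D1:**
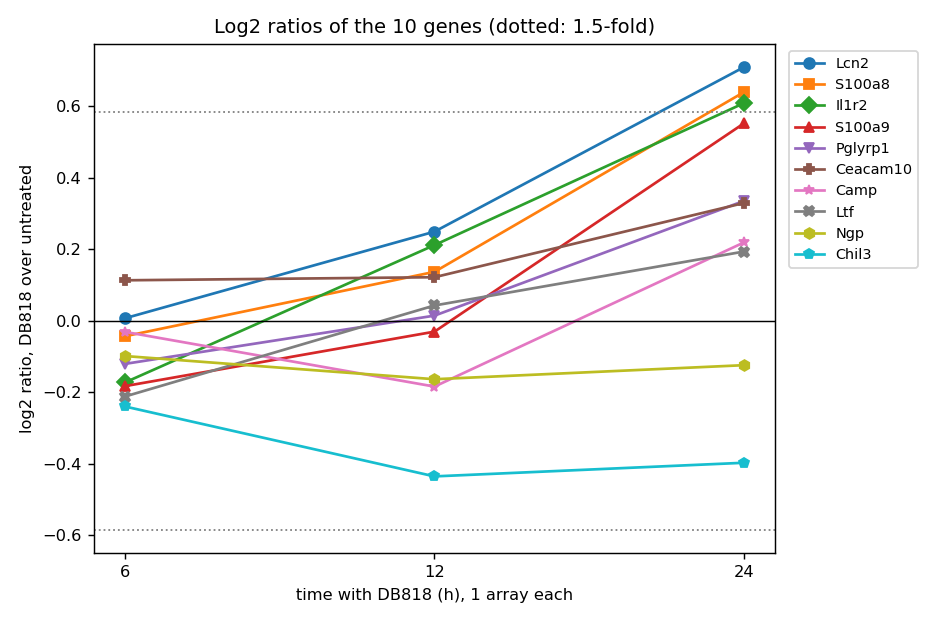
Log2 ratio of DB818-treated over untreated cells (y) at 6, 12 and 24 h (x) for each gene, with 1 array per time, so no error bars; dotted lines mark 1.5-fold. At 6 h the 10 genes lie between -0.24 and 0.11, and at 24 h between -0.40 and 0.71.

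Because no time was repeated, 2 tests were made across the arrays with limma, both adjusted by the Benjamini-Hochberg method over the 10957 genes. The first asks whether the log2 ratio rises or falls with each doubling of time, and the second whether its mean over the 3 times differs from 0. Their errors measure the spread of the arrays about a line or a mean and not the spread between cultures. With 1 and 2 residual degrees of freedom, they rest largely on the spread of other genes. Treated RNA carried Cy5 on every array, so the test of the mean cannot separate DB818 from the dye. In its results, rose and fell say only that the mean log2 ratio was above or below 0.

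With time, 6 of the 10 genes rose (S100a8, S100a9, Lcn2, Il1r2, Ltf and Pglyrp1), against 1.82% of all genes, and 0 of 10 fell, against 1.29%. This test was chosen after several of the 10 genes were seen to differ between 6 and 24 h in earlier results of these data. Its adjusted p values and the contrast with all genes are therefore not independent support. The median change per doubling was 0.22 for the 10 genes and -0.00 for all genes. These calls depended on the background correction. With the scanner software's own processed signals limma called 0 of the 10 and 0 of all genes (smallest adjusted p = 0.196), although 7 of the 10 rose at an unadjusted p under 0.05, against 7.88% of genes. With a normexp offset of 10 only Il1r2 was called, and with plain background subtraction Il1r2, Lcn2 and S100a8 were. Median centring without loess kept Il1r2 and Lcn2. The difference in ratio between 24 and 6 h was not smaller for any of the 6 in those settings, as the later plot of the settings shows.

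S100a8 encodes the smaller calprotectin subunit. Its deposited mean signal was 5036, 5808 and 9333 in treated cells at 6, 12 and 24 h, and 2064, 2199 and 2313 in untreated cells. The dyes differ in brightness, so the channels were compared after normalisation, where the log2 signal was 11.68, 11.83 and 12.46 in treated cells and 11.72, 11.69 and 11.82 in untreated cells. The treated 24 h sample stood above the other 5 values, which lay between 11.68 and 11.83. In log2 ratios this gave -0.04, 0.14 and 0.64, a 1.56-fold higher level with DB818 at 24 h, the 23rd highest of 10957 genes. The change per doubling of time was 0.34 ± 0.04 (SE; limma, adjusted p = 0.0076).

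S100a9, the partner subunit, had a deposited mean signal of 24408, 28012 and 42884 in treated cells and of 9721, 10719 and 10030 in untreated cells, with 0 saturated pixels on any array. The normalised log2 signal was 13.89, 14.02 and 14.56 in treated cells. In untreated cells it was 14.08 and 14.05 at 6 and 12 h, with a change of -0.07 between 6 and 24 h. As for S100a8, the treated 24 h sample alone stood high under loess. The log2 ratios of S100a9 were -0.18, -0.03 and 0.55, or 1.47-fold higher with DB818 at 24 h, and rose by 0.37 ± 0.05 per doubling (SE; limma, adjusted p = 0.0092). Median centring without loess put them at 0.42, 0.48 and 1.18.

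Lcn2, whose product binds bacterial siderophores and so withholds iron, had a log2 signal of 7.08, 7.53 and 7.99 in treated cells and of 7.07, 7.28 and 7.28 in untreated cells. The treated and untreated signals were equal to within 0.01 at 6 h and parted at 12 h. Log2 ratios of 0.01, 0.25 and 0.71 followed, the last being the highest of the 10 genes at 24 h (1.64-fold) and the 13th highest of 10957. The change per doubling was 0.35 ± 0.04 (SE; limma, adjusted p = 0.0034). Its 24 h ratio was 1.13 ± 0.24 in the scanner software's processed values, where the error is that software's own estimate for a single spot.

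Il1r2, the decoy receptor, was measured by 2 probes. Probe A_51_P470079 had a log2 signal of 7.65, 8.20 and 8.70 in treated cells and of 7.81, 7.96 and 7.93 in untreated cells. Probe A_52_P417890 had 6.74, 7.17 and 7.54 in treated cells and 6.93, 6.99 and 7.09 in untreated cells. Both probes were lower in treated cells at 6 h and higher at 12 and 24 h. Their log2 ratios at 24 h were 0.77 and 0.45, so the probes shared the direction and differed in size. The mean of the probes gave -0.17, 0.21 and 0.61, or 1.53-fold higher with DB818 at 24 h. The change per doubling, 0.39 ± 0.03 (SE; limma, adjusted p = 0.00087), was the largest of the 10 genes, and the difference between 24 and 6 h was the 6th largest of 10957.

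Pglyrp1, a peptidoglycan-binding protein of the granules, had a log2 signal of 9.01, 9.22 and 9.45 in treated cells and of 9.13, 9.21 and 9.11 in untreated cells. The untreated signal lay between 9.11 and 9.21, while the treated signal was higher on each later array. Ratios on the log2 scale were -0.12, 0.01 and 0.34, or 1.26-fold higher with DB818 at 24 h, with a change per doubling of 0.23 ± 0.04 (SE; limma, adjusted p = 0.015).

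Ltf encodes lactoferrin, the iron-binding protein of specific granules, and had 2 probes. Probe A_51_P188141 had a log2 signal of 7.11, 7.57 and 7.79 in treated cells and of 7.29, 7.54 and 7.57 in untreated cells. Probe A_52_P15388 had 7.46, 8.13 and 8.26 in treated cells and 7.70, 8.07 and 8.09 in untreated cells. The 2 probes ran in parallel, lower in treated cells at 6 h and higher at 24 h. At 12 h they were close to the untreated level, with log2 ratios of 0.03 and 0.06, and of -0.061 and -0.0025 in the scanner software's processed values. Both were also higher at 12 and 24 h than at 6 h in untreated cells. The gene's log2 ratio was -0.21, 0.04 and 0.19, and its change per doubling was 0.20 ± 0.03 (SE; limma, adjusted p = 0.017). At 24 h the level was 1.14-fold higher with DB818.

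Camp encodes the cathelicidin precursor of specific granules. Its log2 signal was 8.28, 8.49 and 8.91 in treated cells and 8.32, 8.67 and 8.69 in untreated cells. The treated sample was below the untreated one at 6 and 12 h and above it at 24 h, with log2 ratios of -0.03, -0.18 and 0.22. The change per doubling was 0.13 ± 0.06 (SE; limma, adjusted p = 0.29), and the mean over the 3 times was 0.00 ± 0.07 (adjusted p = 0.99).

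Ngp, neutrophilic granule protein, had a log2 signal of 8.74, 8.87 and 9.36 in treated cells and of 8.83, 9.04 and 9.49 in untreated cells. Both channels were higher on each later array, and the treated signal lay slightly under the untreated one on all 3. The log2 ratio was -0.10, -0.16 and -0.12, with a change per doubling of -0.01 ± 0.03 (SE; limma, adjusted p = 0.87).

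Ceacam10, a member of the carcinoembryonic antigen family, was dim. Its deposited mean signal was 93.9, 105 and 126 in treated cells and 81.7, 87.0 and 85.2 in untreated cells. The normalised log2 signal was 6.33, 6.47 and 6.68 in treated cells and 6.21, 6.35 and 6.35 in untreated cells, so the treated signal was higher on all 3 arrays. With the offset of 50 its log2 ratio was 0.11, 0.12 and 0.33, and it was 1.19 ± 0.35 at 24 h in the scanner software's processed values. Median centring without loess gave it the opposite sign at 24 h (-0.24).

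Chil3, a chitinase-like protein secreted by myeloid cells, had a log2 signal of 12.32, 12.15 and 12.40 in treated cells and of 12.56, 12.59 and 12.79 in untreated cells. The treated signals did not overlap the untreated ones. The log2 ratio was -0.24, -0.44 and -0.40, so the level was 1.18-fold, 1.35-fold and 1.32-fold lower with DB818 at 6, 12 and 24 h, but median centring without loess put the 24 h ratio at 0.10.

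**Figure D2:**
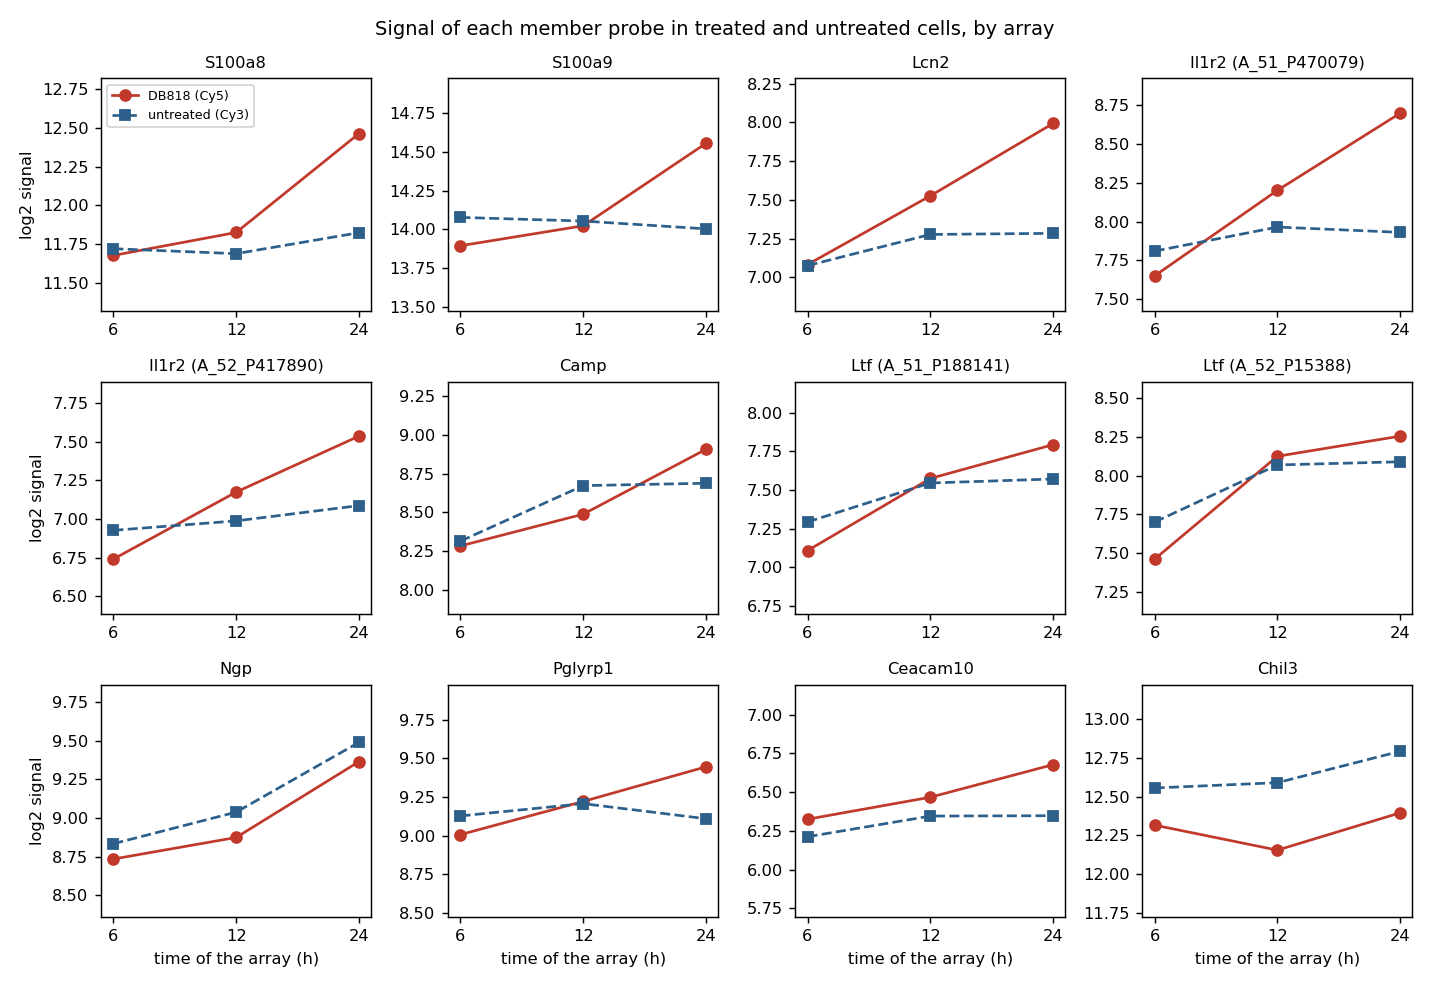
Normalised log2 signal (y) of each of the 12 probes on the 6, 12 and 24 h arrays (x) in DB818-treated (Cy5) and untreated (Cy3) cells, 1 value per point; every panel spans the same number of log2 units. S100a8, S100a9 and Pglyrp1 part most clearly at 24 h, and Lcn2 and Il1r2 part from 12 h. Ngp is higher on later arrays in both channels, and Chil3 is lower in treated cells on all 3 arrays.

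In the mean over the 3 times, 1 of the 10 genes rose, against 20% of all genes, and 2 fell, against 7.84%. With the dyes not swapped, these calls cannot be assigned to DB818 rather than to the dye. Ceacam10 rose by 0.19 ± 0.05 on the log2 scale (SE; limma, adjusted p = 0.029). Chil3 fell by 0.36 ± 0.04 (SE; limma, adjusted p = 0.0048) and Ngp by 0.13 ± 0.03 (adjusted p = 0.023). With median centring in place of loess all 3 changed sign, to -0.44 for Ceacam10, 0.10 for Chil3 and 0.05 for Ngp. Ceacam10 was then called as lower (limma, adjusted p = 0.0012), and Chil3 and Ngp were not called. Without the 6 h array S100a8, Lcn2 and Il1r2 were also called (adjusted p = 0.028, 0.010 and 0.012), so that 4 rose. Without the 12 h array or without the 24 h array 0 rose and 1 fell, which was Chil3. On all 3 arrays the mean of Lcn2 was 0.32 ± 0.12 (adjusted p = 0.078) and that of S100a8 was 0.24 ± 0.11 (adjusted p = 0.15).

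The signals of each channel were compared between arrays after scaling across them. Over 15868 probes the change of log2 signal between the 6 and 24 h arrays had a 5 to 95% range of -0.28 to 0.30 in treated cells and of -0.24 to 0.26 in untreated cells. For S100a8 it was 0.79 in treated cells and 0.10 in untreated cells, and for S100a9 0.66 in treated cells and -0.07 in untreated cells. Lcn2 changed by 0.91 in treated cells and by 0.21 in untreated cells, and Pglyrp1 by 0.44 in treated cells and by -0.02 in untreated cells. For these genes and for Il1r2 the treated change was outside the range of most probes and the untreated change inside it. Without scaling between arrays the untreated changes were 0.19 for S100a8, 0.06 for S100a9, 0.25 for Lcn2 and 0.04 for Pglyrp1. The treated changes were then 0.87, 0.80, 0.95 and 0.50.

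Camp, Ltf and Ngp differed from them in the untreated channel. Ngp changed by 0.63 in treated cells and by 0.65 in untreated cells, and Camp by 0.62 in treated cells and by 0.37 in untreated cells. The probes of Ltf changed by 0.68 and 0.79 in treated cells and by 0.28 and 0.39 in untreated cells. These 3 specific granule genes were thus higher on the 24 h array than on the 6 h array with and without DB818, beyond the range of most probes. The difference between the channels was close to 0 for Ngp. Channel changes were not tested, since each is 1 sample against 1 sample on another array.

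**Figure D3:**
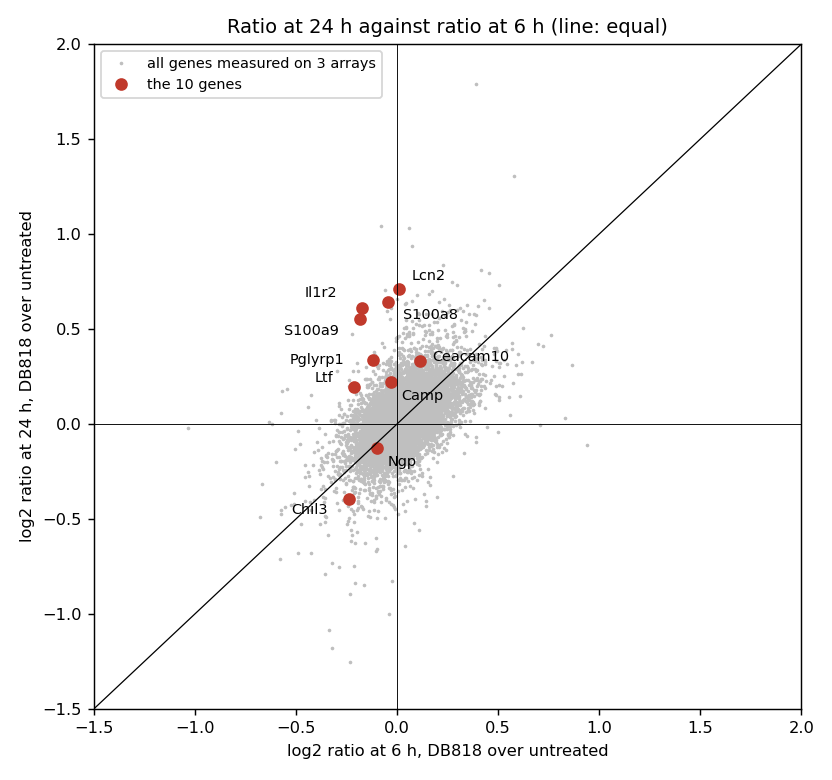
Log2 ratio at 24 h (y) against log2 ratio at 6 h (x), DB818-treated over untreated cells, for the 10957 genes measured on all arrays (grey) and the 10 genes (red); the diagonal marks equal ratios. S100a8, S100a9, Lcn2 and Il1r2 lie near 0 or below it at 6 h and between 0.55 and 0.71 at 24 h, while Ngp and Chil3 lie close to the diagonal.

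Other late neutrophil genes were not called as rising with time more often than all genes. Of 32 further genes of late granules and mature neutrophils, 18 were measured on all arrays. With time 0 of the 18 rose, against 1.82% of all genes, and 2 fell, against 1.29%. With the brightest probe of each gene 1 rose (Cd177) and 2 fell. A count of 0 in so few genes is close to the share of all genes. Slpi, a secreted protease inhibitor, had log2 ratios of -0.21, -0.47 and -0.63 and fell by 0.21 ± 0.03 per doubling (SE; limma, adjusted p = 0.015). Mmp8, the neutrophil collagenase, had log2 ratios of -0.10, -0.33 and -0.50 and fell by 0.20 ± 0.03 per doubling (SE; limma, adjusted p = 0.017). Their course was opposite to that of Lcn2 and calprotectin on the same arrays, but with plain background subtraction, processed signals, the offset of 10 or median centring 0 of the 18 rose and 0 fell with time, and Slpi then changed by as little as -0.08 per doubling. Cd177, a surface protein of specific granules, had a change per doubling of 0.14 (adjusted p = 0.057) and Cyba, a subunit of the NADPH oxidase, of 0.12 (adjusted p = 0.083). In the mean over the 3 times, 4 of the 18 rose and 4 fell, against 11 and 2 with median centring and 1 and 3 with processed signals. The shares of all genes were 20% and 7.84% under loess. With median centring both shares were larger, and with processed signals the rising share was smaller, as the closing counts show. The median log2 ratio of the list at 24 h was 0.05.

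Among 13 other S100 genes, 7 were measured, and with time 2 rose and 0 fell, against 1.82% and 1.29% of all genes. S100a6 had log2 ratios of -0.19, -0.04 and 0.28 (0.24 ± 0.04 per doubling, SE; limma, adjusted p = 0.013), and S100a4 had -0.01, 0.10 and 0.29 (0.15 ± 0.03 per doubling, SE; adjusted p = 0.040). Both encode calcium-binding proteins of the calprotectin family, and their ratios at 24 h were lower than those of S100a8 and S100a9. Under the same 4 settings 0 of the 7 were called. S100a1 had a change per doubling of 0.13 (adjusted p = 0.060). In the mean over the 3 times 0 of the 7 were called, against 20% of all genes rising and 7.84% falling. With median centring 6 of the 7 rose, and the share of all genes called was larger in both directions.

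Of 17 transcription factors known to act on granule genes, 14 were measured, and 0 rose and 0 fell with time, against 0 and 1 (Irf8) with the brightest probe of each gene. In the mean over the 3 times 4 rose, against 20% of all genes. These were Stat5b (0.27), Runx1 (0.22), Cebpb (0.18) and Nfkb1 (0.10), with limma adjusted p = 0.0049, 0.0063 and 0.017 for the first 3. With median centring 5 of the 14 rose and 7 fell, and the share of all genes called was larger in both directions. Nfkb1 had the opposite sign with median centring (-0.29). Another 4 fell. Irf8, which favours monocytes over granulocytes, fell by 0.33 ± 0.05 and Spi1, which encodes PU.1, by 0.29 ± 0.04 (SE; limma, adjusted p = 0.0074 and 0.0049). Cebpa fell by 0.13 and Cux1 by 0.13. Cebpe, which drives specific granule genes, was not measured in both channels on all arrays.

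Of 18 receptors, ligands and partners of the proteins, 11 were measured, with 0 rising and 0 falling over time, against 1.82% and 1.29% of all genes. With the brightest probe of each gene in place of the mean of its probes, 2 rose (Tgm2 and Lrp1) and 2 fell (Ly96 and Tfrc). The largest change per doubling was that of Tfrc, the transferrin receptor, at -0.19 ± 0.05 (SE; limma, adjusted p = 0.061). In the mean over the 3 times Tlr4, a receptor of calprotectin, rose by 0.27 and Il1rn, the interleukin 1 receptor antagonist, rose by 0.14, while Cd14 fell by 0.15 and Prtn3, the protease that cleaves human cathelicidin, fell by 0.28 (each at an adjusted p under 0.05 in limma). With median centring Il1rn (-0.08), Cd14 (0.01) and Prtn3 (0.04) had the opposite sign. Thus 2 of the 11 rose and 2 fell, against 20% and 7.84% of all genes. With median centring 1 rose and 3 fell, and the share of all genes called was larger in both directions. Of 14 paralogs of the 10 genes, 7 were measured, and 0 rose and 0 fell with time, near the 1.82% and 1.29% of all genes. In the mean over the 3 times 1 of these 7 rose and 1 fell, against 20% and 7.84% of all genes.

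Some cell type markers differed between treated and untreated cells. Of the 5 measured neutrophil markers 2 rose with time and 1 fell (Mmp8), against 1.82% and 1.29% of all genes. The 2 that rose, S100a8 and S100a9, are among the 10 genes. With processed signals or median centring 0 were called. Itgam had log2 ratios of 0.42, 0.37 and 0.33, and Csf3r of 0.09, 0.07 and 0.15. In the mean over the 3 times 1 rose (Itgam) and 1 fell (Mmp8), against 20% and 7.84% of all genes. With median centring, which called more of all genes both ways, 3 rose and 0 fell. With time 1 of the 4 measured promyelocyte markers fell and 0 rose, against 1.29% and 1.82% of all genes. Mpo, the primary granule myeloperoxidase, had log2 ratios of -0.32, -0.52 and -1.18 and fell by 0.43 ± 0.05 per doubling (SE; limma, adjusted p = 0.0067). Prss57 went the other way, with log2 ratios of -0.08, -0.09 and 0.14 and a change per doubling of 0.11 (limma, adjusted p = 0.16). Elane (-0.07, adjusted p = 0.33) and Prtn3 (-0.08, adjusted p = 0.23) had small changes per doubling, but under loess both were lower in treated cells at all 3 times. The log2 ratios were -0.58, -0.57 and -0.71 for Elane and -0.21, -0.27 and -0.37 for Prtn3. In the mean over the 3 times 3 of these 4 markers fell and 0 rose, against 7.84% and 20% of all genes. With median centring 1 fell and 1 rose. Over these 4 markers, of which Mpo is one, the summed normalised signal was 15708, 14614 and 10846 in treated cells, and 20074, 20041 and 18336 in untreated cells. Over the 4 measured monocyte and macrophage markers it was 1217, 1307 and 1431 in treated cells, and 1287, 1425 and 1600 in untreated cells. With time 0 of these 4 rose and 0 fell, against 1.82% and 1.29% of all genes. For the change with time the smallest limma adjusted p among them was 0.051, for Ccr2. In the mean over the 3 times 3 of these 4 fell and 0 rose, against 7.84% and 20% of all genes. With median centring 2 fell and 1 rose. Mcpt8, a basophil protease and the only measured one of 5 mast cell and basophil markers, had log2 ratios of 0.16, 0.40 and 0.49, while the other 4 were above background in neither channel. The part of such shifts in the ratios of the 10 genes was not tested. In RNA from whole cultures, more cells of a type and more RNA per cell cannot be told apart.

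Of 9775 genes with an established symbol, the 5 with ratios nearest to those of S100a8 over the 3 arrays were Rtp4, Cox6a2, Tgfb2, Lcn2 and 5830428M24Rik, at Euclidean distances of 0.110, 0.110, 0.112, 0.142 and 0.148 on the log2 scale. Il1r2 came 7th and S100a9 came 22nd in that order. S100a9 had a like shape, with lower ratios at all 3 times.

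The size of the late rise was compared between ways of processing the same arrays. The difference in log2 ratio between 24 and 6 h was 0.68 to 0.72 for S100a8, 0.74 to 0.76 for S100a9, 0.70 to 1.12 for Lcn2 and 0.78 to 1.22 for Il1r2. It was 0.46 to 0.53 for Pglyrp1 and 0.40 to 0.57 for Ltf. A larger offset pulls the ratio of a dim probe toward 0. Ceacam10 spanned 0.22 to 0.91, while Chil3 lay between -0.16 and -0.15.

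**Figure D4:**
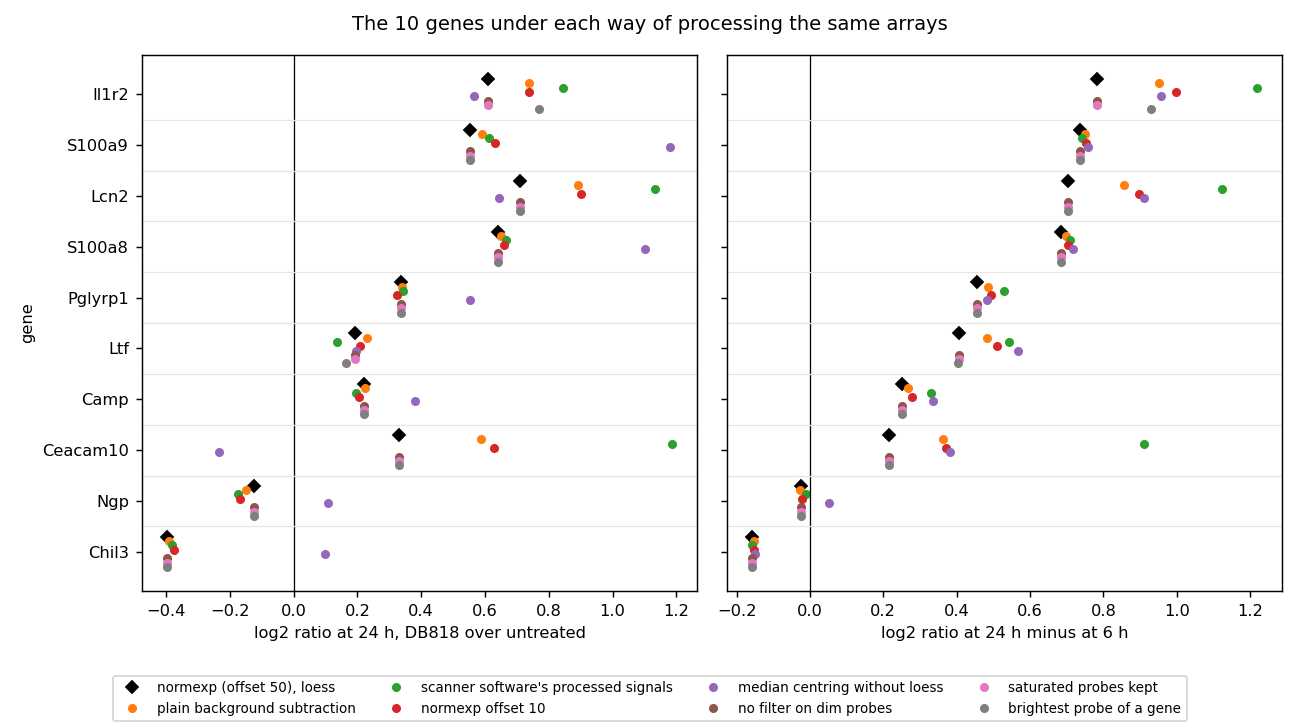
Log2 ratio of DB818-treated over untreated cells at 24 h (left, x) and its difference between 24 and 6 h (right, x) for each gene (y) under each way of processing, with 1 point per setting. The differences of S100a8 and S100a9 stay within 0.68 to 0.76, those of Lcn2 and Il1r2 reach 1.12 and 1.22 with the scanner software's processed signals, and median centring without loess changes the sign of the 24 h ratio of Ceacam10, Ngp and Chil3.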

How the data were processed

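Total RNA of treated and untreated MigA9 cells was measured on 3 two-colour Agilent mouse arrays. The authors extracted the signals with Agilent Feature Extraction 9.1.3.1, per the submitters' processing notes. Per the file headers, each deposited scanner file gives the intensity of every spot and of its local background in Cy5 and Cy3. A log10 ratio per spot, treated (Cy5) over untreated (Cy3) cells per the labels, is in the deposited series values, which differed from those of the scanner by at most 0. The genome build and annotation behind the probes are not given in the sources used here. Log2 values were computed here from the deposited intensity values.

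The mean spot signal was corrected for the local median background by normexp (offset 50), and loess was applied to each array separately. This was done with limma 3.58.1 under R 4.3.3, and tables were read with the data-table package, version 1.17.8. Control spots and outliers (37, 36 and 52) were left out. Probes of a gene were averaged where both channels of an array were well above background and unsaturated. Channel levels were set across arrays by quantile normalisation of the mean signal (Aquantile). The mean over the 3 times (2 residual degrees of freedom, prior 4.81) and the change per doubling of time (1, prior 8.39) were tested with eBayes over 10957 genes, at a Benjamini-Hochberg adjusted p of 0.05. Both were run on simulated data first. Probes were named through RefSeq by accession (22864), symbol (6732) or synonym (3498), and 8080 kept the file's name. Figures were drawn in matplotlib 3.10.9 (Python 3.11.15, pandas 2.3.3, numpy 2.4.6).

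The 10 genes, the gene lists, the motifs and the test over time were chosen with earlier results of these data known. All 10 genes are named, with at most 5 of each further list, those with the largest change per doubling. Genes past 1.5-fold, some of those called in the mean over the times and some marker genes were named beside them after their values were seen. Other settings tried were background corrections, median centring, the filters on dim and on saturated probes, the choice of probe, time in hours and leaving out each array. Channel levels were also computed without scaling between arrays. The number of arrays limits the precision.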

Additional observations from a re-analysis of the deposited data

How the results depend on the processing

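The trend and mean tests rest on 1 array per time, and no array could be checked by a repeat. No paired analysis was possible because each time has 1 array, on which treated and untreated RNA are already compared. With plain background subtraction, the scanner software's processed signals and a normexp offset of 10, the count of the 10 genes that were 1.5-fold or more higher at 24 h (3) was 5, and median centring without loess put 1 at least 1.5-fold lower at 6 h. The count of the 10 genes that rose with time (6) was 3 with subtraction, 0 with processed signals, 1 with the offset of 10 and 2 with median centring. Over all genes, in place of 199 rising and 141 falling with time, these settings called 64 and 42, 0 and 0, 7 and 1, and 45 and 22. Without the filter on dim probes 63 rose and 48 fell, and with the brightest probe of each gene 326 and 268. Keeping saturated probes, taking time in hours, or letting the prior variance depend on signal (added after seeing the data) left the count at 6.

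In the mean over the 3 times the count of the 10 genes that rose (1) was 0 with processed signals, 3 with median centring and 0 without the filter on dim probes, and the count that fell (2) was 1 with processed signals (Chil3) and 1 with median centring, which was not one of those 2 genes but Ceacam10. Over all genes 2189 rose and 859 fell, against 593 rising with processed signals, and 4153 rising and 4477 falling with median centring. Median centring turned the means of Ceacam10 (-0.44), Chil3 (0.10) and Ngp (0.052). Leaving out 1 array at a time gave 0 to 4 of the 10 rising and 1 to 2 falling, and 417 to 2256 of all genes rising and 146 to 937 falling. Under every way of processing tried the 24 h ratio of S100a8, S100a9, Lcn2, Il1r2, Pglyrp1, Ltf and Camp was above 0. The causes were not tested.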
